A study of Mus musculus with 6 samples.

Results

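The complement system was followed here through 9 genes that tumors can make themselves, read out of 40166 genes in the count table by their symbols. They were *C3*, *C4b*, *Cfb*, *C1ra*, *C1s1*, *Serping1*, *Cd55*, *Cd59a* and *Masp1*. RNA had been sequenced from 6 subcutaneous YUMM3.3 tumors, 3 from mice given water (vehicle) and 3 from mice given rigosertib (RGS) at 300 mg/kg, by oral gavage on 5 days a week, all collected at 17 days of treatment. YUMM3.3 is a single BRAF-mutant mouse melanoma line, so every tumor in both groups carries the same driver mutations. The hosts were C57BL/6 mice 8 to 10 weeks old with an intact immune system. The paper describes RGS as a small molecule that mimics RAS and may block its downstream signaling. It also cites other reported mechanisms and a dispute over an effect on microtubules. The comparison asks how RGS changed gene expression in whole tumors. The labels give tumors from mice, but defining markers of T cells, macrophages and pigment cells were at or near 0 in all 6 libraries, so these markers gave no check that the RNA came from whole melanoma tissue. Nothing in the labels links single tumors to cages or days, so the p-values measure the spread between these 6 tumors.

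Complement is a cascade of plasma and membrane proteins that marks cells for clearance and recruits leukocytes. Its classical arm starts when C1q engages the serine proteases C1r and C1s, and its lectin arm starts with the MASP proteases. Both cleave C4 and C2, and the resulting convertase, like the one built with factor B in the alternative arm, cleaves C3. *Serping1* encodes C1 inhibitor, the serpin that inactivates C1r, C1s, MASP1 and MASP2. CD55 takes the convertases apart and CD59 blocks the membrane attack complex. The liver is the main source of the plasma proteins, but tumor cells, fibroblasts and macrophages also make several of them.

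In RGS tumors the genes of the activating proteases and of their shared inhibitor were lower, while the central components were barely expressed in either group. *C1ra*, *C1s1*, *Masp1* and *Serping1* fell, by log2 fold changes from -1.24 to -6.29. *C3*, *C4b* and *Cd59a* were tested and did not pass the threshold, and *Cfb* and *Cd55* had too few counts to test. The threshold was an adjusted p under 0.05 in the quasi-likelihood test of edgeR, adjusted by Benjamini-Hochberg over the 15355 genes with a median of at least 5 counts in at least 1 group. Of the 9 genes, 4 were therefore lower and 0 higher, beside 16.5% of all tested genes lower and 16.3% higher. By tumor, 4 of the 9 did not overlap between the groups and were lower with RGS, and 1, *C3*, was higher without overlap, beside 24.0% and 21.7% of tested genes (45.8% in either direction). None of the 9 was higher at an unadjusted p under 0.05 or by DESeq2 or limma voom. *C1ra* and *C4b* entered the test through the vehicle tumors alone, so the count over tested genes is a description.

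The libraries held between 13837932 and 32555494 counts, with all RGS libraries shallower than the shallowest vehicle library. Treatment and depth therefore cannot be told apart. A floor of 3 counts was between 0.0856 and 0.226 CPM, which is the count relative to the TMM-scaled library size, and covers counting error only. The libraries held little RNA of host leukocytes or liver. Of 7 T and NK cell markers, 5 had no count in any tumor. The macrophage marker *Adgre1* was at 0 throughout, and the summed level of the 8 macrophage markers, most of it *Cd68* and *Mertk*, was 90.1 to 101 CPM with vehicle and 102 to 137 CPM with RGS. The hepatocyte genes *Alb*, *Apoa1* and *Serpina1a* were at 0. Of the other hepatocyte genes, *Ttr* had 18, 0 and 2 counts with vehicle and 40, 0 and 0 with RGS. *Apoa2* had 1 count in vehicle replicate 8, 16 in RGS replicate 10 and none elsewhere. Of the 7 melanocyte genes, 3 were at 0, *Mlana*, *Dct* and *Tyr*. Of the other melanocyte genes, *Mitf* had 74 to 261 counts in each tumor and *Pmel* at most 25. The 9 fibroblast markers summed to 408 to 602 CPM with vehicle and 294 to 322 CPM with RGS, with 4 lower and 1 higher of 8 tested (16.5% and 16.3% among all tested genes). The 6 endothelial markers summed to 0.946 to 1.20 and 3.47 to 11.2 CPM, most of the RGS sum being *Cdh5* (5.68, 2.71 and 10.2 CPM), while *Emcn* was at 0 and *Kdr* and *Tie1* had at most 6 counts in any tumor. The part of these cells in the complement results was not tested, and in whole tumors fewer cells of a type cannot be told apart from less RNA per cell.

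Stretches of 250 bases upstream of the annotated start are shown for 3 of the 9 genes, to set the letters of known complement inducers beside the values below: *C1s1*, which fell, and *C3* and *Cd59a*, which did not pass the threshold. They come from RefSeq on GRCm38.p6, 5′ to 3′ on the strand of the gene, and capitals mark a motif match. Only windows with a match are shown. The window of *Cd55* held none of the motifs searched, and neither did the windows at *C1ra* and at a second start of *C1s1*, which overlap an annotated exon.

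C1s1, chr6:124542360-124542609, minus strand: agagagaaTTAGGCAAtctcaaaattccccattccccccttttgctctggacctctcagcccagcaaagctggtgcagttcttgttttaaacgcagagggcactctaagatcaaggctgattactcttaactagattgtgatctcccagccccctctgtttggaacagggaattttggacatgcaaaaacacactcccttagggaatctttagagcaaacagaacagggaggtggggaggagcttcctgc
C3, chr17:57228137-57228386, minus strand: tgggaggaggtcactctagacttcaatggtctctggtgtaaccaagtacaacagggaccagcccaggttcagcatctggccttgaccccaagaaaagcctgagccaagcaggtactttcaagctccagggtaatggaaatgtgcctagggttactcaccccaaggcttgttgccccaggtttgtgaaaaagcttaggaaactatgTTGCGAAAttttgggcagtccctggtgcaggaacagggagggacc
Cd59a, chr2:104095551-104095800, plus strand: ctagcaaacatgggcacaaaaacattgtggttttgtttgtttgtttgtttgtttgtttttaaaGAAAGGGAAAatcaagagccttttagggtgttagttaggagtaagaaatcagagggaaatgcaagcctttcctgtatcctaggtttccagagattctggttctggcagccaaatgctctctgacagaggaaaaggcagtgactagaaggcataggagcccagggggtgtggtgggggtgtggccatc

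The capitals in *C1s1* and *C3* are matches to TTGCNNAA, the core recognized by C/EBP factors, beginning at positions -242 and -45 from the start. In *C1s1* the match is on the opposite strand. Such a match is present in 9.56% of all 32851 windows of the same length. The capitals in *Cd59a* match the interferon-stimulated response element bound by IRF factors (GAAA, any 2 bases, GAAA), beginning at position -187 and found in 2.98% of windows. The interferon-gamma activated element TTCNNNGAA (7.02% of windows) and the kB consensus (3.90%) were searched on both strands as well, and these letters are not in any of the 3 windows. RefSeq promoters were matched for 5 of the 9 genes, and a match to letters is not evidence of a site.

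The proteases that open the classical arm lie side by side on chromosome 6 of GRCm38, *C1ra* (ENSMUSG00000055172.10) from 124512405 to 124523443 on the plus strand and *C1s1* (ENSMUSG00000038521.17) from 124530345 to 124542359 on the minus strand, with 6901 bases between their ends. *C1ra* encodes C1r, which activates itself and then C1s. Counts of 86, 36 and 45 were found in vehicle replicates 7, 8 and 9 and 1, 0 and 0 in RGS replicates 10, 11 and 12. The gene was thus almost absent from all RGS tumors, and the groups did not overlap. At the vehicle rate the RGS libraries would have held 98.1 counts in place of 1, a ratio of 98.1 with an exact 95% interval for counting error of 17.4 to 3899. By edgeR its fitted log2 fold change was -6.29 ± 1.46 (SE), with an adjusted p of 0.00264. Of the 75-base windows of *C1ra*, 40.1% are also in the neighbouring copy *C1rb*, which had no count in any tumor, so reads that fit both could have been lost from *C1ra* in either group.

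*C1s1* encodes C1s, the protease that cleaves C4 and C2. It was measured at 6.08, 8.02 and 3.91 CPM in the vehicle tumors and at 2.13, 2.41 and 0.918 CPM in the RGS tumors. All RGS tumors were below all vehicle tumors, and RGS replicate 12 was the lowest. The log2 fold change was -1.72 (standard error 0.55, 95% interval -2.87 to -0.57, adjusted p = 0.0210 from edgeR). This call was lost without vehicle replicate 8, the highest tumor. That fit called 3493 of 16088 genes over the whole table, beside 5036 of 15355 with every tumor. In it the log2 fold change of *C1s1* was -1.44 with an adjusted p of 0.160, where the 14 alternatives ranged from 0.00689 to 0.160. The copy *C1s2* shares 14.7% of the windows and had no counts.

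*Masp1* (ENSMUSG00000022887.9, chromosome 16, 23449417 to 23520815) encodes the MASP1 protease of the lectin arm and, by splicing, a further protease that activates factor D. It was measured at 73.2, 61.3 and 48.6 CPM with vehicle and 27.1, 21.1 and 29.3 CPM with RGS. The groups were well apart, and the spread within each was small. The mean fell from 61.0 ± 12.3 to 25.8 ± 4.25 CPM (SD, n = 3 each), with a log2 fold change of -1.24 (standard error 0.20, 95% interval -1.67 to -0.81, adjusted p = 1.32e-04 from edgeR). *Rtp4*, an interferon-stimulated gene whose annotated span overlaps that of *Masp1* on the opposite strand, also had far fewer counts with RGS (863, 913 and 780 against 26, 66 and 18). The exons of *Rtp4* and *Masp1* share 0 bases.

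*Serping1* (ENSMUSG00000023224.12, chromosome 2, 84765387 to 84775444), the gene of C1 inhibitor, was at 12.9, 16.0 and 13.3 CPM in the vehicle tumors and 1.56, 2.86 and 0.306 CPM in the RGS tumors. The vehicle tumors were close together, with a coefficient of variation of 11.9%, while the RGS tumors spread over a wide range (81.1%) below them. The level fell 9.03-fold (log2 fold change -3.17, standard error 0.52, 95% interval -4.26 to -2.09, adjusted p = 1.19e-04 from edgeR). Fits that omitted 1 tumor each gave values from -3.87 to -2.71.

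**Figure D1:**
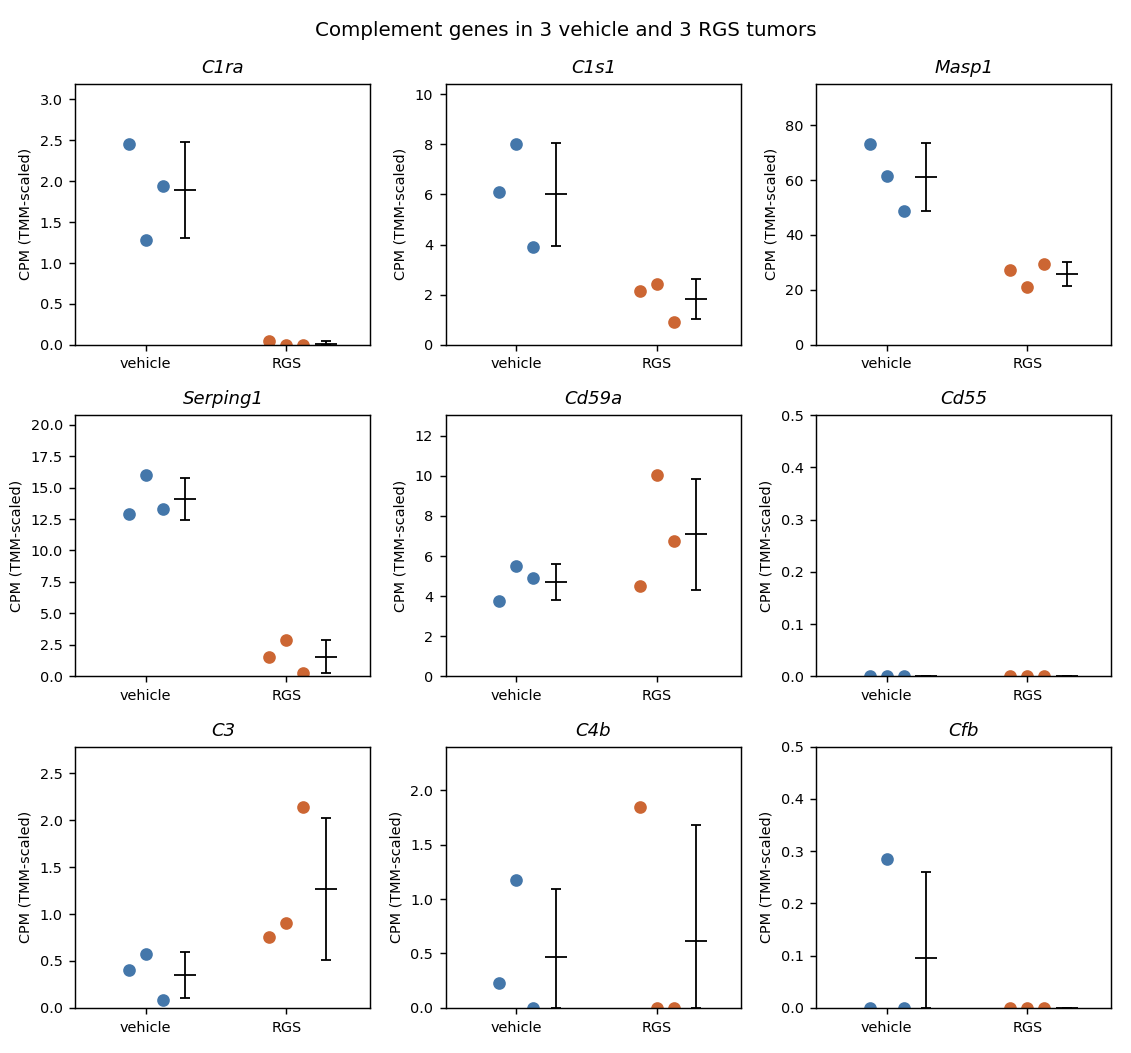
Expression of each of the 9 complement genes in CPM of the TMM-scaled library (y axis, from 0, a separate scale per gene) in the 3 vehicle and 3 RGS tumors, each a point, with the group mean and SD as a black bar cut at 0. *C1ra*, *C1s1*, *Masp1* and *Serping1* do not overlap between the groups and are lower with RGS, *Cd55* is at 0 in all 6 tumors, and *Cfb* has counts in 1 vehicle tumor.

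C1 inhibitor acts on C1r, C1s and the MASP1 protease. The level of *Serping1* was therefore set against the summed level of *C1ra*, *C1s1* and *Masp1*, all in CPM per kilobase of gene length. This ratio was chosen after the values had been seen and is a description. It was 0.542, 0.744 and 0.838 in the vehicle tumors and 0.194, 0.422 and 0.0402 in the RGS tumors. The level of *Serping1* was thus lower relative to the summed level of these protease genes in the RGS tumors, without overlap. *Masp1* made up most of the sum, and counts per gene do not separate its splice products. How much of the sum encodes targets of C1 inhibitor is therefore not known.

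A decrease of this kind was not found for the membrane inhibitor *Cd59a* and could not be assessed for *Cd55*. *Cd59a* (ENSMUSG00000032679.12, chromosome 2, 104095801 to 104115354), which protects cells from the membrane attack complex, was at 3.74, 5.49 and 4.90 CPM with vehicle and 4.50, 10.02 and 6.73 CPM with RGS. The groups overlapped, and RGS replicate 11 was the highest tumor. The log2 fold change was 0.58 with a 95% interval from -0.29 to 1.46 (adjusted p = 0.305 from edgeR), so an increase of up to 1.46 or a small decrease on the log2 scale remain possible. *Cd55* (ENSMUSG00000026399.12, chromosome 1, 130439027 to 130462744) had 0 counts in all 6 tumors, as did its copy *Cd55b*, which allows a level of up to 0.226 CPM in the shallowest library. Expression of *Cd55* was thus not detectable at this depth in either group.

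The central components were near the floor. *C3* (ENSMUSG00000024164.15, chromosome 17, 57203970 to 57228136), the protein on which all 3 arms converge, had 14, 16 and 2 counts with vehicle and 16, 12 and 35 counts with RGS. In CPM these were 0.400, 0.570 and 0.0860 against 0.757, 0.904 and 2.14. All RGS values lay above all vehicle values, as they did for 21.7% of tested genes, and replicate 12 stood highest. The log2 fold change of 1.82 had a wide 95% interval, from -0.69 to 4.34 (adjusted p = 0.263 from edgeR), so the direction was not resolved. *C4b* (ENSMUSG00000073418.4, chromosome 17, 34728380 to 34743882), which encodes C4, had 8, 33 and 0 counts with vehicle and 39, 0 and 0 counts with RGS. A single tumor held most of its counts in each group, and its log2 fold change of 0.41 (95% interval -3.15 to 3.98, adjusted p = 0.879 from edgeR) became -6.47 without RGS replicate 10 (adjusted p = 0.169, with a range of 0.169 to 0.979 over 12 alternatives). Of its 75-base windows, 23.5% are also in *C4a*, which had 4, 14 and 17 counts with vehicle and 32, 5 and 0 counts with RGS. *Cfb* (ENSMUSG00000090231.10, chromosome 17, 34856374 to 34862518), encoding factor B, had 8 counts in vehicle replicate 8 and none in the other tumors. *Gm20547*, an annotated gene on the same strand that spans *Cfb* and part of *C2*, shares 2246 of the 2825 exonic bases of *Cfb*. Its identifier is not among those counted in these tumors, so whether reads fitting both were left out is not known.

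Per kilobase of gene length, which allows levels of different genes to be compared, *Masp1* (6.21 ± 1.25 CPM per kilobase, SD, n = 3) and *Serping1* (6.05 ± 0.718) led in vehicle tumors and did not differ beyond their spread. *Cd59a* (2.60 ± 0.491) and *C1s1* (1.92 ± 0.656) followed, also within their spread of each other, and then *C1ra* (0.634 ± 0.197). *C4b* (0.0822 ± 0.109), *C3* (0.0684 ± 0.0478) and *Cfb* (0.0336 ± 0.0583) could not be ordered. Among all tested genes *Masp1* stood at the 60.3rd percentile of vehicle levels, *C1s1* at 38.6 and *C3* at 5.34. In RGS tumors *Cd59a* (3.91 ± 1.53 CPM per kilobase) came first, ahead of *Masp1* (2.63 ± 0.433) but within its spread. *Serping1* (0.678 ± 0.550) had moved down to the level of *C1s1* (0.582 ± 0.254), and *C3* (0.246 ± 0.148) was above *C1ra* (0.00529 ± 0.00917).

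**Figure D2:**
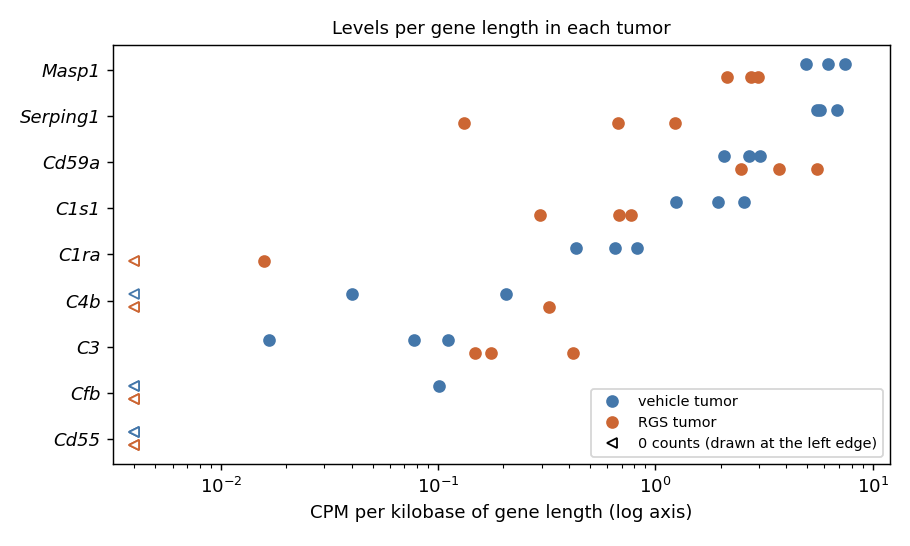
Level of each complement gene per kilobase of gene length (x axis, CPM per kilobase, log scale) in each vehicle and RGS tumor, one point per tumor, with tumors at 0 counts drawn as open triangles at the left edge. The vehicle points of *Masp1*, *Serping1*, *C1s1* and *C1ra* all lie to the right of the RGS points of the same gene, while *Cd59a* and *C4b* overlap.

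A list of 47 other complement genes placed these values in the pathway, and 14 of them had enough counts to be tested. Of these, 3 were higher and 0 lower with RGS by edgeR, beside 16.3% higher among all tested genes. At an unadjusted p under 0.05 in edgeR, 5 of the 14 passed, all higher. Among all 15355 tested genes 6592 passed, in either direction, so passing was common. Neither DESeq2 nor limma voom called any of the 47 lower. The median log2 fold change of the 14 was 0.64, against -0.05 over all tested genes. *Cpn1* and *Cr2* entered the test through the RGS tumors alone, where they had more counts, and *Itgb2* through the vehicle tumors alone, so this count and median are descriptions. Recognition molecules were sparse. *C1qa*, *C1qb* and *C1qc*, whose products form C1q and which macrophages mainly make, had at most 4 counts in any tumor. RNA for the partner that C1r and C1s need was thus near or below the floor in both groups. The C1q protein was not measured. Of the 7 terminal components, 5 had at most 3 counts in every tumor and only *C8g*, named after its values were seen, was tested (log2 fold change -1.40, adjusted p = 0.335 from edgeR).

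*Clu* (chromosome 14, 65968483 to 65981547), which encodes clusterin, a secreted chaperone that also restrains the membrane attack complex, rose, and at 29.5 ± 3.06 CPM per kilobase in vehicle tumors (SD, n = 3) its level was above that of each of the 9 genes. It was measured at 112, 101 and 91.2 CPM with vehicle and 585, 570 and 697 CPM with RGS. The groups were widely separated, with a 6.08-fold increase (2.60 ± 0.16 on the log2 scale, SE, with an adjusted p of 1.21e-09 by edgeR). *Cd93*, a membrane protein once taken for a C1q receptor and found on endothelial and myeloid cells, rose from 154 ± 43.1 to 244 ± 22.4 CPM (SD, n = 3 each), a log2 fold change of 0.67 (adjusted p = 0.00892 from edgeR). Its call was lost without RGS replicate 10 (adjusted p = 0.0510, the highest of 14 alternatives, the lowest being 3.27e-05). *Cpn1*, the catalytic subunit of carboxypeptidase N, which trims the anaphylatoxins, had no counts with vehicle and 32, 0 and 40 counts with RGS. Against the highest floor of a vehicle library its mean was at least 10.2-fold higher, but RGS replicate 11 was at 0 as well and the call was lost with DESeq2 and without RGS replicate 12 (adjusted p up to 0.115 over 13 alternatives, down to 0.00166).

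*Cr1l* encodes Crry, the rodent inhibitor that does the work of CD55 and CD46 on most mouse cells. It was measured at 23.7, 35.5 and 42.5 CPM with vehicle and 34.9, 40.2 and 51.4 CPM with RGS. The groups overlapped, and the difference did not exceed their spread (log2 fold change 0.32, 95% interval -0.16 to 0.79, adjusted p = 0.303 from edgeR). Per kilobase its level of 3.28 ± 0.918 CPM in vehicle tumors (SD, n = 3) was within the spread of that of *Cd59a*. *C3ar1*, the receptor of C3a, and *Colec11*, a lectin that binds the MASP proteases, are named here after their values were seen. They were higher with RGS without overlap, as were 21.7% of all tested genes, with log2 fold changes of 0.90 and 2.58. Both missed the threshold (adjusted p = 0.0770 and adjusted p = 0.0769 from edgeR). Of the alternatives, only DESeq2 called *Colec11* (adjusted p = 0.0182), and none called *C3ar1*. RGS replicate 10 held 63 counts of *Colec11*, beside 16 and 17 in the other RGS tumors.

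**Figure D3:**
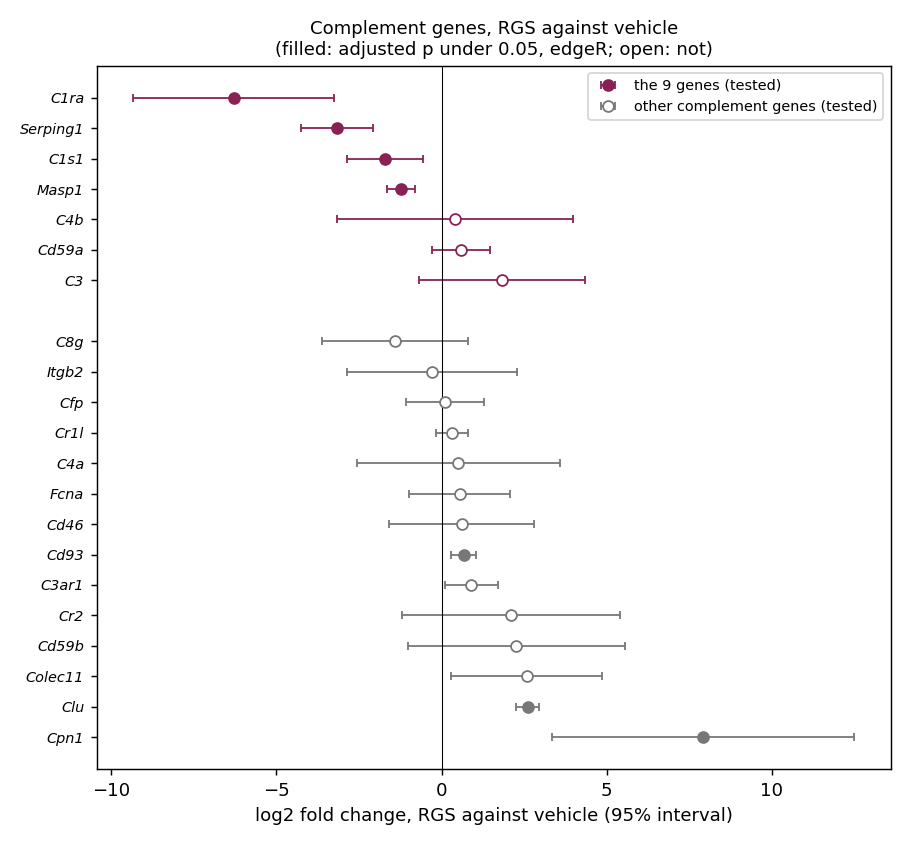
Log2 fold change of RGS against vehicle (x axis) with its 95% interval for the 7 tested genes of the 9 (upper block) and the 14 tested genes of the wider complement list (lower block), filled where the adjusted p was under 0.05. *C1ra*, *Serping1*, *C1s1* and *Masp1* lie left of 0, and *Cd93*, *Clu* and *Cpn1* lie right of it, where the fitted value of *Cpn1* depends on vehicle counts of 0.

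Complement genes outside the liver are induced by interferons, in part through IRF1, and by inflammatory cytokines through C/EBP and NF-kB factors. Of 23 genes of such cytokines, receptors and factors, 19 were tested, 3 rose and 3 fell, beside 16.3% higher and 16.5% lower among all tested genes. These shares are close to the background, and the values below describe single genes. *Irf1* fell from 46.8, 49.7 and 52.2 CPM to 12.3, 19.5 and 20.5 CPM (log2 fold change -1.51, adjusted p = 3.49e-05 from edgeR). It separated the groups fully, and so did *Cebpd* and *Cebpb*, which moved in opposite directions. A further C/EBP gene, *Cebpa*, overlapped between the groups (log2 fold change -0.10, adjusted p = 0.788 from edgeR). *Cebpd* fell from 125 ± 17.3 to 60.2 ± 6.20 CPM and *Cebpb* rose from 262 ± 17.8 to 475 ± 54.5 CPM (SD, n = 3 each), with log2 fold changes of -1.05 (adjusted p = 9.59e-05) and 0.86 (adjusted p = 2.42e-04, edgeR). *Rela*, an NF-kB subunit, rose by a log2 fold change of 0.70 (adjusted p = 0.00579 from edgeR). *Il1a* rose from at most 2 counts in any vehicle tumor to 14, 26 and 32 counts (adjusted p = 0.0158 from edgeR). It entered the test through the RGS tumors alone, and its call was lost in 4 of 14 alternatives, each of which left out 1 tumor (vehicle replicate 7 or 8, or RGS replicate 11 or 12). The receptors *Ifngr1* and *Il6st* and the factor *Stat3*, also chosen with their values known, had log2 fold changes of -0.10, -0.22 and 0.05 and did not pass the threshold. *Ifng*, *Il1b* and *Osm* had no counts in any tumor.

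**Figure D4:**
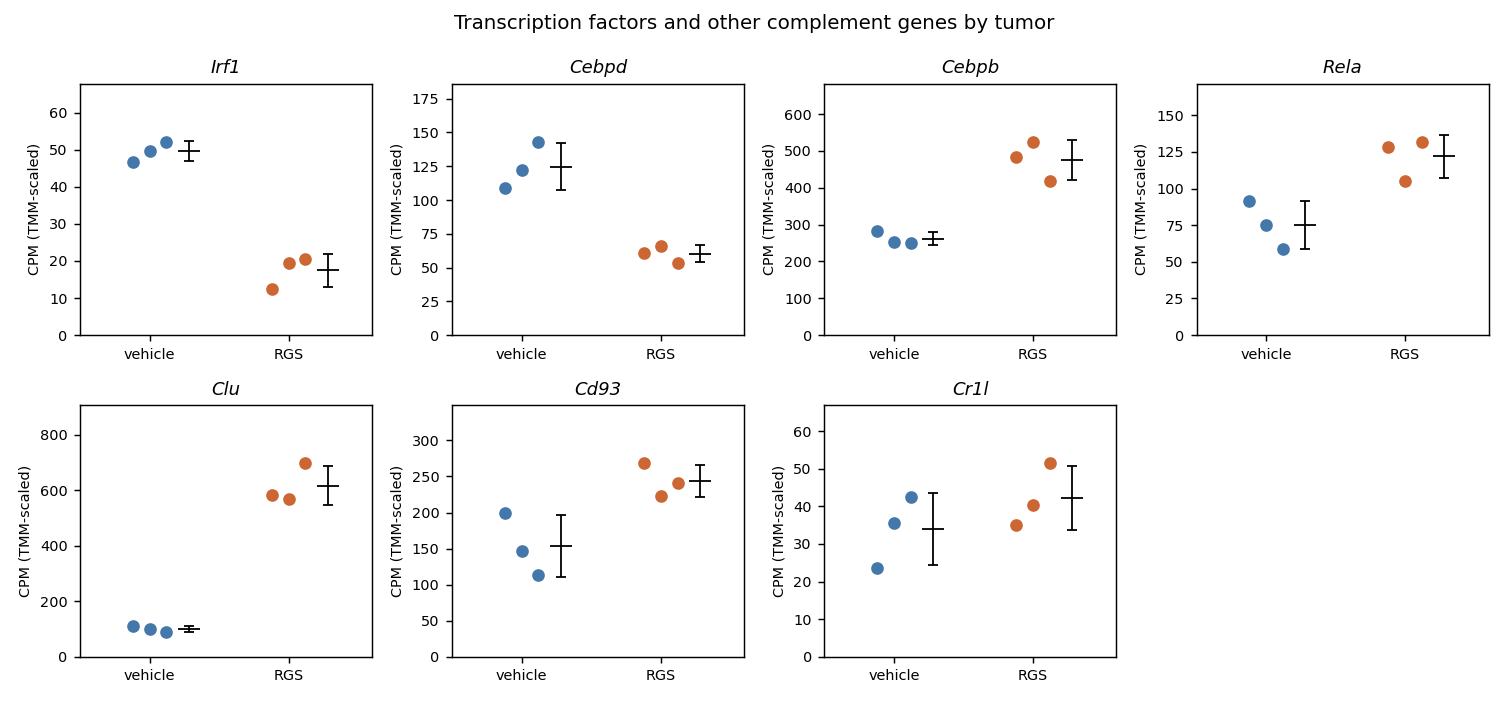
Expression in CPM of the TMM-scaled library (y axis, from 0, a separate scale per gene) of 4 transcription factor genes and 3 other complement genes in the 3 vehicle and 3 RGS tumors, with the group mean and SD as a black bar. *Irf1* and *Cebpd* are lower and *Cebpb*, *Rela*, *Clu* and *Cd93* higher in every RGS tumor, while *Cr1l* overlaps.

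The decreases of *C1ra*, *Masp1* and *Serping1* passed the threshold under all 14 alternatives, which were other tools, scalings and filters, each tumor left out, and counts summed with those of the near-identical copies. That of *C1s1* passed under 13 of 14. None of the alternatives called *C3*, *C4b* or *Cd59a*.

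**Figure D5:**
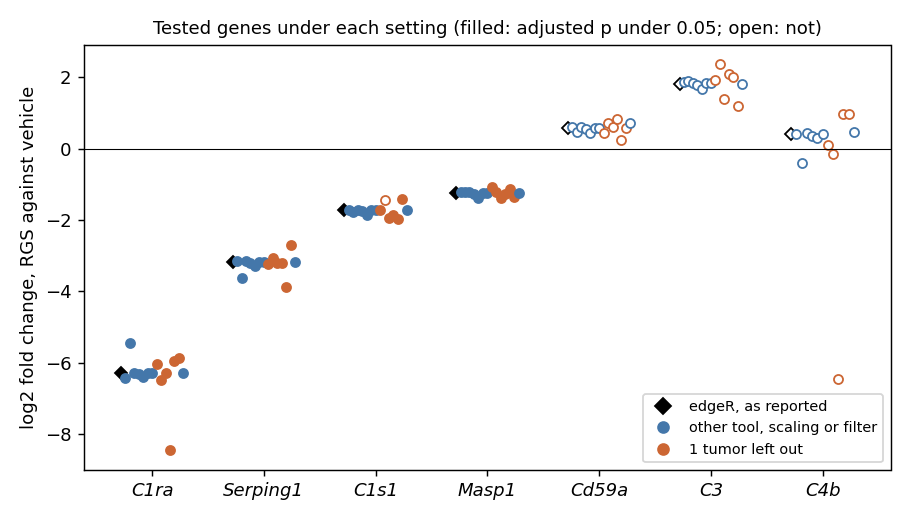
Log2 fold change of RGS against vehicle (y axis) of the 7 tested genes under the reported edgeR fit (black diamond), under other tools, scalings and filters (blue) and with 1 tumor left out (orange), filled where the adjusted p was under 0.05. The 4 lowered genes stay below 0 throughout, while *C4b* falls on both sides of 0.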

How the data were processed

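The authors sequenced paired-end reads of 150 bases from 6 tumors and deposited a table of raw counts for each gene and tumor, not normalized, together with gene lengths and positions. The submitters' processing notes name cutadapt 1.18, FastQC 0.11.7, STAR 2.7.1a and featureCounts 1.6.4 and the build mm10. Strand and multi-mapping settings are not given in the sources used here, so near-identical and overlapping genes are uncertain. All 38927 gene identifiers shared with GENCODE M21 (GRCm38) had the same start and end there. From the counts, genes with a median of at least 5 in at least 1 group, the filter in the study's methods, were fitted with edgeR 4.0.16 (TMM factors, quasi-likelihood F test, R 4.3.3), with Benjamini-Hochberg adjustment over 15355 genes. Intervals are 95% t intervals of that fit. DESeq2 1.42.0, which the authors used, and limma 3.58.1 (voom) were alternatives. The procedure was also run on simulated data. Changes there were placed only in genes with higher mean counts than *C1ra*, *C3* or *C4b*, so that run does not cover such sparse genes. The 9 genes and all lists were chosen with earlier results of these data known. Named genes are the 9, their copies, genes of the wider complement list past the threshold or with a mean of at least 10 CPM, and up to 4 per direction of the inducer and acute phase lists. Motifs were chosen after the values had been seen. Some genes of these lists are counted but not reported here by name.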

Additional observations from a re-analysis of the deposited data

How the results depend on the processing

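Among values recomputed under alternatives, 262 held. For percentiles of level this means a shift within the SD between single vehicle tumors. The others of these kept their direction and their side of the threshold or, for counts of genes, stayed within 1.5 times. A further 7 counts moved more, 3 values reversed and 1 lost its call. With each tumor left out, the log2 fold change of *C1s1* ranged from -1.97 to -1.43, and it lost its call without vehicle replicate 8 (-1.44). *C4b*, not called in any fit, ranged from -6.47 to 0.98, turning negative without RGS replicate 10 (-6.47) and without vehicle replicate 9 (-0.16), and was at -0.41 with limma voom. It could not be tested under the stricter low-count filter of edgeR or without vehicle replicate 8. Of the 9 genes, 3 to 4 were called with 1 tumor left out. A threshold of 1 on the size of the log2 fold change left 1 of the 3 higher inducer genes. Of the acute phase genes, DESeq2 called 4 (3 of them higher) and limma voom called 2 higher, where edgeR called 2 (1 higher, 1 lower). With 1 tumor left out, 1 to 3 were called, 0 to 1 higher and 1 to 2 lower. The causes were not tested. Library size alone as scaling moved the median of all tested genes from -0.05 to -0.19 on the log2 scale and changed no call among the 9. No paired analysis was possible because the groups share no replicate numbers. Depth limits *C3*, *C4b*, *Cfb* and *Cd55*, which had at most 39 counts in any tumor.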

Other observations

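Acute phase genes, which share inducers with complement in the liver, were mostly absent. Of 18 genes, 8 had no counts in any tumor and 6 were tested, of which 1 was higher and 1 lower past the threshold (edgeR, beside 16.3% and 16.5% of all tested genes). *Cp*, which encodes the copper-carrying ferroxidase ceruloplasmin, fell from 76.9, 77.7 and 76.0 CPM in the vehicle tumors to 16.9, 22.6 and 32.9 CPM in the RGS tumors. The vehicle tumors were nearly equal, and all RGS tumors lay below them (-1.67 ± 0.22 on the log2 scale, SE, with an adjusted p of 1.03e-05 by edgeR). *Lcn2*, the iron-sequestering lipocalin, averaged 6.39 ± 1.96 CPM in vehicle tumors and 13.3 ± 3.45 in RGS tumors (CPM, SD, n = 3), an increase of 1.06 on the log2 scale (adjusted p = 0.0226 by edgeR). Its call was lost without vehicle replicate 8 or without RGS replicate 12, with adjusted p-values between 0.0123 and 0.118 over 14 alternatives.

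RGS replicate 10, the deepest RGS library, held most counts of its group for several sparse complement genes, among them *C4b*, *C4a* and *Cd59b*. These genes are named after their values were seen. That tumor had all 39 RGS counts of *C4b*. It had 32 of the counts of *C4a* beside 5 and 0 in the other RGS tumors, and 61 of *Cd59b* beside 0 and 7. It also held all RGS counts of the hepatocyte genes *Ttr* (40) and *Apoa2* (16). Other sparse complement genes went the other way. RGS replicate 10 had 3 counts of *Cd46* beside 40 and 30, and 1 of *Itgb2* beside 37 and 2. In CPM, the same tumor was not the highest of its group for *C3*, *C1s1*, *Serping1* or *Cd59a*.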
